A study of Mus musculus with 13 samples.

Results

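Of 22555 genomic regions at which LSD1 was called in at least 1 library, 402 were called in both libraries made with IL3 and in neither made without it, and overlapped no STAT5A region of the pooled library with IL3. They were found by merging the 4 LSD1 replicate lists wherever regions overlapped by 1 bp or more on the assembled mouse chromosomes (mm10). All gained regions numbered 757 (3.36% of the 22555), and regions lost in the opposite sense numbered 72 (0.319%). A lost region had to be called in both libraries made without IL3, and the shorter of their lists held only 1007 regions. The counts of gained and lost regions are therefore not a like comparison. The 402 regions are 1.78% of all merged LSD1 regions and 2.46% of the 16374 that lay clear of pooled STAT5A. The members were thus chosen by their LSD1 calls in the 4 libraries and by the pooled STAT5A calls, so their LSD1 values describe them and carry no test.

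The cells were Ba/F3, a murine pro-B line that needs interleukin 3 (IL3) to grow. In the groups STAT5Aminus, LSD1minus and HDAC3minus the culture went without IL3 for 6 h, and in STAT5Aplus, LSD1plus and HDAC3plus the same 6 h were followed by 30 min in 10 ng/mL IL3. All cells had been kept in 1 ng/mL IL3 beforehand, and each group had 2 biological replicates and 1 pooled list. Ba/F3 is a single cell line, so the replicates are cultures of 1 line.

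LSD1, encoded by Kdm1a, removes methyl groups from histone H3 lysine residues with a flavin cofactor and usually works inside the CoREST complex beside class I histone deacetylases. It has no known preference for a DNA sequence of its own and is brought to promoters and enhancers by transcription factors such as those of the GFI1 and SNAIL families. In haematopoietic cells it is best known for damping the genes of other lineages, while IL3 acts through JAK kinases, STAT5 and the RAS-MAPK pathway.

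The promoters below are shown because gained LSD1 regions lay at the starts of genes of the RAS-MAPK pathway, an immediate early gene and a cell cycle gene. Each window runs from 250 bases before to 50 bases after an annotated start, 5′ to 3′ on the strand of the gene, from RefSeq on GRCm38.p6, the assembly that mm10 names. Capitals mark the bases inside the gained LSD1 region.
Jun (chr4:95052173-95052472, minus strand): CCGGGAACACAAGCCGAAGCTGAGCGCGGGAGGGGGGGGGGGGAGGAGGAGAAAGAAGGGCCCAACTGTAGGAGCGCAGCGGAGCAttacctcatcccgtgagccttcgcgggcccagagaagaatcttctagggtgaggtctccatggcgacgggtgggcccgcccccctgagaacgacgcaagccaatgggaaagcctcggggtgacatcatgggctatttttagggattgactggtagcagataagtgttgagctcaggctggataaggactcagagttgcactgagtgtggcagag
Spred1 (chr2:117120821-117121120, plus strand): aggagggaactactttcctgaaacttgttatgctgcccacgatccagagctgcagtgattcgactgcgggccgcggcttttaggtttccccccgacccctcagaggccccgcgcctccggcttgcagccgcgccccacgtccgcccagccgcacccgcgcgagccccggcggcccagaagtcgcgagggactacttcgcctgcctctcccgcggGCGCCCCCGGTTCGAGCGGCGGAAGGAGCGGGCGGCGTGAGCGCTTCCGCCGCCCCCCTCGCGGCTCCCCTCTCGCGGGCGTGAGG
Sos2 (chr12:69681803-69682102, minus strand): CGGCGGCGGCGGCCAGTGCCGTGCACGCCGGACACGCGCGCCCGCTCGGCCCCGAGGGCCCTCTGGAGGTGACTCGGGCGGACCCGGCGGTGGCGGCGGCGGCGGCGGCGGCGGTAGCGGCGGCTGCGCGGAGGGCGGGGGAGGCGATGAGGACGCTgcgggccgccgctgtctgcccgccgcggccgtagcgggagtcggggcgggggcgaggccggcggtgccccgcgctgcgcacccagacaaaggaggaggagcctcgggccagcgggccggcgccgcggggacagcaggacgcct
Rasa2 (chr9:96631454-96631753, minus strand): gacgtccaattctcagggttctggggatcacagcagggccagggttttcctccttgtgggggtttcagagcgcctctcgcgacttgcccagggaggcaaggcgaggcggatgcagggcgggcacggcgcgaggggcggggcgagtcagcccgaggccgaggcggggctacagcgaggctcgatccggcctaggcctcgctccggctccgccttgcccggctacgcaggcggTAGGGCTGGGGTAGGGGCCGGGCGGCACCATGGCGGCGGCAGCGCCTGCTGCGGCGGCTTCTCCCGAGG
E2f7 (chr10:110745189-110745488, plus strand): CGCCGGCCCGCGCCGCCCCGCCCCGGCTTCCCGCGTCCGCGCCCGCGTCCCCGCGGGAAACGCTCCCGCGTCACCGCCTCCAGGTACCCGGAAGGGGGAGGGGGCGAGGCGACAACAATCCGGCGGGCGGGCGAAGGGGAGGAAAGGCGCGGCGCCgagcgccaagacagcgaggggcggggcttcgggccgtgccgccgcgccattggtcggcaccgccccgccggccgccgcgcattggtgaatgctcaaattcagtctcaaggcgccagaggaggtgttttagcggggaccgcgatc
The promoters of Ssbp4 and Hgfac are shown because they were the 2 of 157 member promoters with the palindromic STAT motif TTCNNNGAA, which capitals mark here. Hgfac was picked after its motif was seen.
Ssbp4 (chr8:70608265-70608564, minus strand): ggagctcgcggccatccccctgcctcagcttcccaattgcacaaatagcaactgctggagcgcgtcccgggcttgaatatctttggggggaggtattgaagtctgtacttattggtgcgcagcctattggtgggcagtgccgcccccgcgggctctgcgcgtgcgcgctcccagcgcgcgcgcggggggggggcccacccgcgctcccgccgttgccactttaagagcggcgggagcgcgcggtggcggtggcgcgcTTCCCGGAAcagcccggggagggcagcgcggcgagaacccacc
Hgfac (chr5:35041259-35041558, plus strand): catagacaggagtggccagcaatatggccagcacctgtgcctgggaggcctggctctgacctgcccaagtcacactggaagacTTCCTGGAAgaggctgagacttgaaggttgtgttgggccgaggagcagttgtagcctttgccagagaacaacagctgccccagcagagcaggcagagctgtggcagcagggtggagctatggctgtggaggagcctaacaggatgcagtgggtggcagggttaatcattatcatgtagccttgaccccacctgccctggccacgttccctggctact
In Ssbp4 the motif TTCCCGGAA began at position 8, with the start as position 1, outside the LSD1 region, and in Hgfac the motif TTCCTGGAA began 167 bases before the start (position -167), inside it.

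The LSD1 lists were uneven. LSD1minus 1 held 1007 regions, LSD1minus 2 held 15786, LSD1plus 1 held 6479 and LSD1plus 2 held 11570. In each list the low scores lay within 0.1 of whole multiples of 1 step, and if a step is 1 read, the libraries LSD1minus 2, LSD1plus 1 and LSD1plus 2 were 4.96, 6.11 and 5.68 times as deep as LSD1minus 1. That reading gave HDAC3plus 2 a depth of 8.84 and the pooled HDAC3plus list only 8.61, so it may not hold in every list. The lowest score listed was 60.5 in LSD1minus 1, which no member reached in LSD1plus 1 and 1 member reached in LSD1plus 2. Absence without IL3 therefore rests on LSD1minus 2, whose lowest score was 15.2. In both libraries with IL3, 357 of the 402 members were at or above that score. The meaning of the score is not stated, so values of different lists may not be on 1 scale. These counts do not show what LSD1minus 2 would have called.

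The members were modest LSD1 calls. Their scores ran from 14.9 to 54.5 with a median of 19.8 in LSD1plus 1, which is 6 to 22 steps with a median of 8, and from 16.0 to 69.3 with a median of 24.0 in LSD1plus 2, which is 6 to 26 steps with a median of 9. The median member ranked at 59.0% of the first list and at 57.3% of the second, counting from the top. Only 62 members were at least 1.5 times the floor of LSD1minus 2 (a score of 22.8) in both libraries, with the same limit on comparing lists. The 1355 regions clear of STAT5A that were called in both LSD1plus libraries and in LSD1minus 2 had higher medians, 22.3 and 32.0, as did the 355 gained regions that overlap STAT5A, 22.3 and 26.6. Just outside the rule lay 4514 regions away from STAT5A that 1 LSD1plus list alone held, with medians of 17.3 in LSD1plus 1 (1378 regions) and 21.3 in LSD1plus 2 (3136 regions). Just inside it, 45 members were at the lowest member score of 14.9 in LSD1plus 1, and the last by mean rank were in Ppt1, Pan3 and Tm2d3, each at 14.9 and 16.0.

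**Figure D1:**
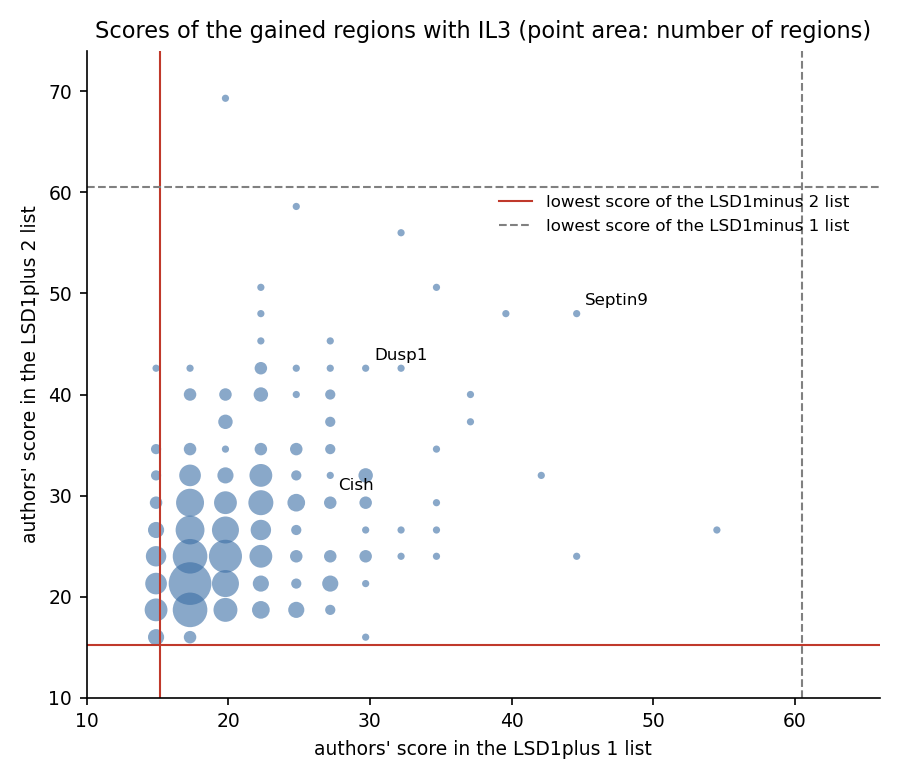
Score of each gained region in the LSD1plus 1 list (x axis) and the LSD1plus 2 list (y axis), in the authors' units; point area is the number of regions with that pair of scores, and lines mark the lowest score listed in LSD1minus 2 (solid) and LSD1minus 1 (dashed). Most points lie just above the solid lines, and a single region exceeds the dashed line at 60.5.

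Many members had an LSD1 region called close by without IL3. Of the 402 members, 163 (40.5%, 95% Wilson interval 35.9 to 45.4) had an LSD1minus replicate region within 1 kb. For 124 it was within 500 bp and for 74 within 200 bp, and the median distance was 2873.5 bp. Among the 355 gained regions that overlap STAT5A, 29.3% (interval 24.8 to 34.2) had one within 1 kb, and the median was 6988 bp. The pooled LSD1minus list held a region over 92 members (22.9%, interval 19.0 to 27.2), with a median pooled score of 20.3, or 8 steps. It overlapped 96.7% of the 1355 regions called with and without IL3. A stricter set with no LSD1minus replicate region within 1 kb and no pooled LSD1minus overlap held 178 members (44.3%). The pooled LSD1plus list held 395 of the 402.

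"Away from STAT5A" meant no overlap with the pooled STAT5Aplus list, and many members lay beside it. The nearest pooled STAT5Aplus region was within 100 bp of 31 members, within 1 kb of 129 (32.1%, interval 27.7 to 36.8) and within 10 kb of 230 (57.2%, interval 52.3 to 62.0). The median distance was 5660.5 bp, against 11056 bp for the 1355 regions called with and without IL3. Among those, 22.1% lay within 1 kb and 47.9% within 10 kb, and among the 331 of them with scores as low as those of the members, 19.9% and 44.1%. The 54 regions lost away from STAT5A had a lower median, 3013 bp. Of these, 27.8% (interval 17.6 to 40.9) lay within 1 kb and 70.4% (interval 57.2 to 80.9) within 10 kb, so gained regions were not alone in lying near STAT5A. A call in LSD1minus 1 was required of lost regions, which limits them to the 1007 regions of that list. At the far end, 24 members were over 100 kb from any pooled STAT5Aplus region. The STAT5Aplus replicate lists overlapped 50 members, 13 in replicate 1 (3.23%) and 37 in replicate 2 (9.2%), and none in both. The shares were close to those of regions called with and without IL3, 4.13% and 8.86%, and of the weaker ones among these, 3.63% and 9.97%. With every STAT5A list counted, 135 members were overlapped, and 123 were overlapped by none and lay over 10 kb from pooled STAT5Aplus. No share of other LSD1 regions stands beside these last counts, so they only describe the members.

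**Figure D2:**
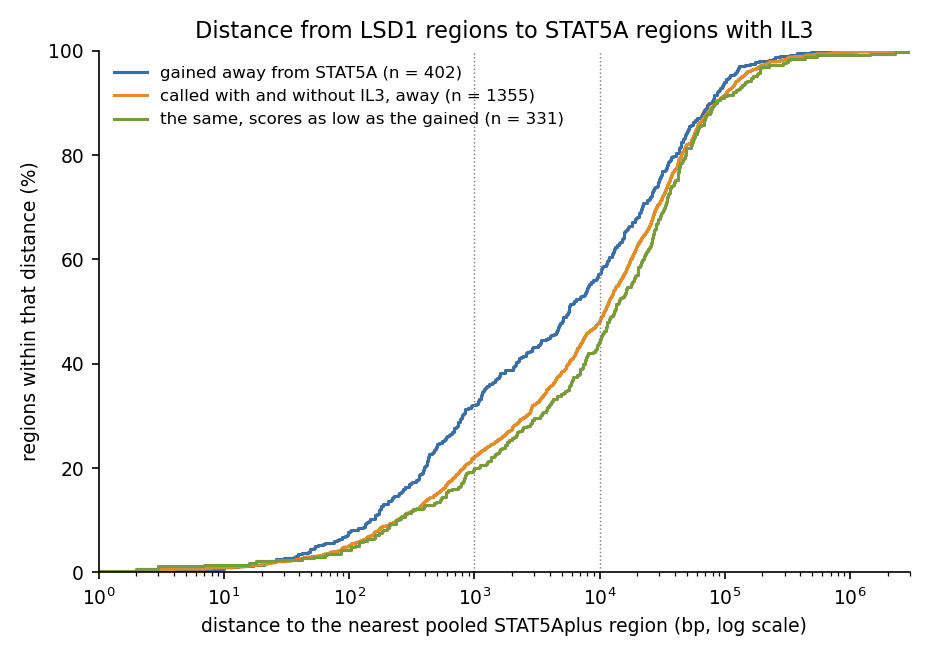
Share of LSD1 regions (y axis, %) with a pooled STAT5Aplus region within the distance on the x axis (bp, log scale), for the 402 gained regions, the 1355 regions called with and without IL3 and the 331 of these with scores as low as the gained ones. The gained curve is above the others at 1 kb, 32.1% against 22.1% and 19.9%.

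STAT5A calls made without IL3 also fell on the members. STAT5Aminus 2 overlapped 90 members (22.4%, interval 18.6 to 26.7) and the pooled STAT5Aminus list 74 (18.4%), beside 13.0% and 15.2% of all merged LSD1 regions, while STAT5Aminus 1 overlapped 2. Of the 102 members under STAT5Aminus 2 or the pooled list, 82 were within 1 kb of a gene bound. Regions called with and without IL3 had shares of 19.8% and 23.5% (interval 21.4 to 25.9) in the same lists. The members' share was thus above that of all LSD1 regions in STAT5Aminus 2, and in the pooled list it lay between that of all LSD1 regions and that of regions called in both conditions.

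Most members lay at the bound of a gene, chiefly at its start. Of the 402, 226 had their centre within 1 kb of either bound of a protein-coding gene (56.2%, interval 51.3 to 61.0). The share was 36.6% (interval 31.8 to 41.7) among gained regions that overlap STAT5A and 38.7% (interval 36.2 to 41.4) among regions called with and without IL3. It was 47.4% (interval 42.1 to 52.8) among the 331 of these with scores as low as the members', an interval that overlaps that of the members. Of the 226, 175 lay at a bound known to be the start, 2 at a 3′ end and 49 at genes whose strand the promoter table lacks. A further 105 members lay inside genes and 71 outside them, over 1 kb from a bound. Among the 178 members of the stricter set, the share within 1 kb was 44.9% (interval 37.8 to 52.3), and among the 94 members ranked in the top 50% of both LSD1plus lists it was 43.6% (interval 34.0 to 53.7).

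At starts, most members were centred just inside the gene. Of 214 members within 1 kb of an annotated start, 138 were centred downstream of it (64.5%, interval 57.9 to 70.6), with a median of 69.75 bp downstream. Among the regions called with and without IL3, 228 of 502 were downstream (45.4%, interval 41.1 to 49.8) and the median was 14.5 bp upstream (-14.5). Among the weaker of these, 69 of 147 were downstream (46.9%, interval 39.1 to 55.0), and among gained regions that overlap STAT5A 71 of 117 were (60.7%, interval 51.6 to 69.1). An LSD1minus replicate region lay within 1 kb of 107 of the 214, upstream of the member in 68 and downstream in 39, and its part in the difference was not tested.

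**Figure D3:**
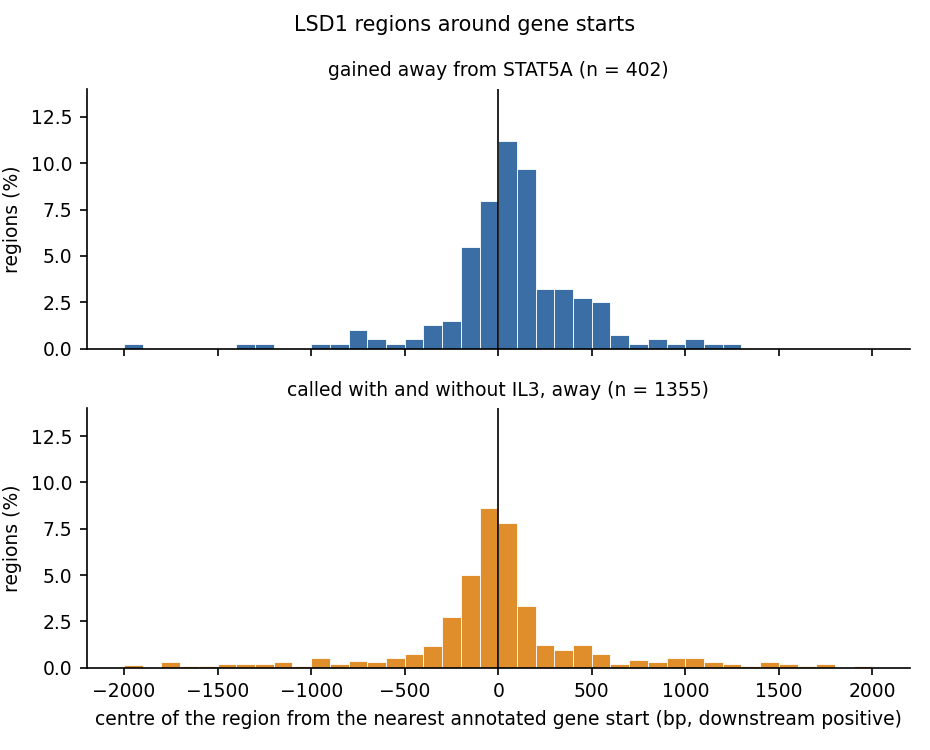
Share of regions (y axis, %) by distance of the centre from the nearest annotated gene start (x axis, bp, downstream positive, bins of 100 bp), for the 402 gained regions (top) and the 1355 regions called with and without IL3 (bottom). In the top panel 138 of the 214 regions within 1 kb of a start are downstream of it, against 228 of 502 in the bottom panel.

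Feedback inhibitors and immediate early genes were among the genes at the members. Dusp1, a phosphatase that switches off MAP kinases, had a member centred 162 bp downstream of its start (chr17:26508212-26508408) with a score of 29.7 in LSD1plus 1 and 42.6 in LSD1plus 2. A pooled STAT5Aplus region of score 27.8 began 10 bp away, and LSD1minus 2 had regions on either side, centred upstream (position -696, score 45.7) and 460 bp downstream (score 36.6). LSD1 was therefore called around this start in both conditions. A second LSD1plus 1 region there, centred at position -270, overlapped a pooled LSD1minus region of score 27.9. Cish, which blocks signalling from cytokine receptors to STAT5, had a member 225 bp downstream of its start (chr9:107296747-107297021) with scores of 27.2 and 29.3. It lay 53 bp from the pooled STAT5Aplus region of score 587.5, and the edge of a STAT5Aplus 1 region overlapped it. LSD1minus 1 had a region there at position -515 with a score of 75.6, or 5 steps.

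Jun, which encodes a subunit of the AP-1 transcription factor, had a member 303 bp upstream of its start (position -303, chr4:95052387-95052663) with scores of 17.3 and 29.3. The nearest LSD1minus replicate region was 73348 bp away, so this call was isolated without IL3, and a pooled HDAC3plus region and a STAT5Aminus 2 region overlapped it. Of its paralogues, Jund had a member 1238 bp downstream of its start with scores of 19.8 and 29.3, only 34 bp from an LSD1minus region. The orphan receptor gene Nr4a1 had a member at scores of 24.8 and 34.6, inside the gene and 58 bp from an LSD1minus region. In all, 4 of 39 immediate early genes (10.3%) had a member within 10 kb, where 2.23% of all 21887 protein-coding genes did. Regions called with and without IL3 were near 4 of the 39 as well, beside 5.59% of all genes.

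**Figure D4:**
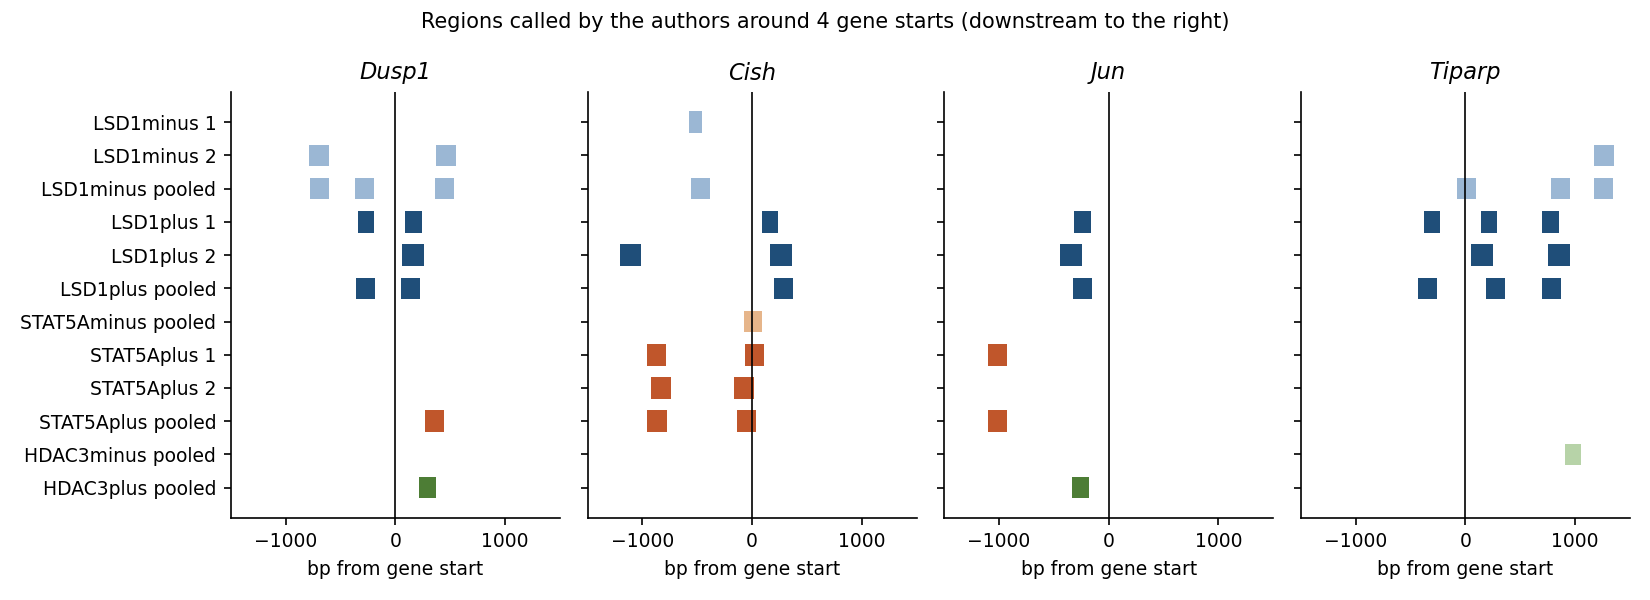
Regions in the authors' lists around the starts of Dusp1, Cish, Jun and Tiparp (x axis, bp from the gene start, downstream to the right); each row is a list, and each bar spans a called region. Dusp1, Cish and Tiparp have LSD1 regions without IL3 within the window, and Jun has none.

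The RAS-MAPK and PI3K list had 4 of 41 genes near a member (9.76%, beside 2.23% of all genes), and 3 of the 4 members lay at a start. Regions called with and without IL3 were near 7 of 41 (17.1%, beside 5.59% of all genes). Spred1, an inhibitor of RAS signalling to RAF, had scores of 17.3 and 24.0 at 69 bp downstream of its start, with an LSD1minus region 201 bp away and a STAT5Aplus 2 region of score 60.0 overlapping it. Sos2, an exchange factor that activates RAS, had scores of 19.8 and 29.3 at position -217. An LSD1minus 2 region of score 30.5 was centred 909 bp downstream of the Sos2 start. Rasa2, a GTPase-activating protein that switches RAS off, had scores of 22.3 and 32.0 at 79 bp downstream of its start. The member lay 128 bp from pooled STAT5Aplus and 124 bp from an LSD1minus region, and STAT5Aminus 2 and pooled STAT5Aminus regions overlapped it. These 3 genes include both an activator and inhibitors of the pathway.

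The list of the IL3 receptor and JAK-STAT signalling had 3 of 35 genes near a member (8.57%, beside 2.23% of all genes). Regions called with and without IL3 were near 10 of 35 (28.6%, beside 5.59% of all genes). The 3 genes near a member were Cish, Jak3 and Lif. The member near Jak3, which encodes the kinase of the common gamma chain receptors, was 7393 bp from the gene and inside Unc13a, with scores of 22.3 and 50.6 and the nearest LSD1minus replicate region 38780 bp away, but a pooled LSD1minus region of score 25.4 lay 439 bp from it. Lif, a cytokine gene, had scores of 19.8 and 37.3 and a pooled LSD1minus region over it, and a STAT5Aplus 2 region of score 40.0 overlapped the member.

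Among cell cycle genes, 3 of 28 had a member (10.7%, beside 2.23% of all genes), against 2 of 28 (7.14%, beside 5.59% of all genes) for regions called with and without IL3. E2f2, an activating E2F factor, had scores of 27.2 and 37.3 at 2024 bp downstream of its start, 447 bp from an LSD1minus region. E2f7, a repressor of the same family, had scores of 14.9 and 29.3 at position -246, and its nearest LSD1minus replicate region was 145268 bp away. Rb1, the retinoblastoma gene, had scores of 14.9 and 24.0 with an LSD1minus region 93 bp away. The 3 differed in whether LSD1 had been called close by without IL3.

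Other lists held few members. The LSD1, CoREST and NuRD list had 2 of 29 genes (6.9%), Gse1, a component of CoREST complexes, and Zeb1, a zinc finger repressor. The haematopoietic transcription factors had 1 of 54, Cebpb (scores of 22.3 and 32.0 at 396 bp downstream of its start), beside 8 of 54 (14.8%) for regions called with and without IL3. The SMAD list had Smad7, an inhibitor of TGF-beta signalling. No gene of the B lineage (26), myeloid and mast cell (27), NF-kB and TNF (21) or HDAC3 and NCoR (8) lists had a member within 10 kb, and none did among 28 genes of other tissues. Of all protein-coding genes, 2.23% had a member within 10 kb and 5.59% a region called with and without IL3. For lists this short, having no gene near a member is close to the first share, and shares of a few genes carry wide counting error.

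The members with the best mean rank lay at genes of varied function. The first was in Septin9, a cytoskeletal GTPase, upstream of an internal start (position -862) with scores of 44.6 and 48.0, and a STAT5Aplus 1 region overlapped it. Next was Tmprss6, a protease of iron balance, with scores of 39.6 and 48.0 and 179 bp from pooled STAT5Aplus. It too was under a STAT5Aplus 1 region, and the pooled LSD1plus list had no region over it. Then came a member 14187 bp from Rtca, an RNA cyclase, with scores of 32.2 and 56.0, under a pooled LSD1minus region of score 20.3. Glo1, which detoxifies methylglyoxal, had scores of 34.7 and 50.6, and the pooled LSD1minus list had a region of score 38 over it. Others of the first 20 were named by Ehbp1l1, Ky, Dusp1, Sema4a, Hmga1, Tiparp, Ak5, Alad (haem synthesis), Polg (the mitochondrial DNA polymerase), Elac1, Gda, E2f2, Unc13a, Pdlim7 and Ssbp4. Their scores ran from 22.3 to 42.1 in LSD1plus 1 and from 32.0 to 50.6 in LSD1plus 2. Pooled LSD1minus regions also lay over the members named by Sema4a (20.3), Tiparp (50.7) and Elac1 (17.8). The gene within reach is a neighbour only, since some of these members lie over 10 kb from any gene bound.

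HDAC3 was rarely called at the members. HDAC3minus 1 overlapped 8 members (1.99%), HDAC3minus 2 overlapped 1 (0.249%), HDAC3plus 1 overlapped 4 (0.995%) and HDAC3plus 2 overlapped 1 (0.249%). Of all merged LSD1 regions the same lists overlapped 6.38%, 1.47%, 2.59% and 0.257%. The mean share was 0.622% ± 0.528 (SD, n = 2) with IL3 and 1.12% ± 1.23 (SD, n = 2) without, a difference of -0.498 percentage points (two-sided exact permutation test, p = 1, smallest possible p 0.33). The lists held 1632, 535, 683 and 265 regions in the same order. The groups overlapped, and without HDAC3minus 1 the difference was 0.373.

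The pooled HDAC3 lists, of 3350 regions without IL3 and 1208 with it, showed where the members stood among LSD1 regions. Pooled HDAC3minus overlapped 21 members (5.22%, interval 3.44 to 7.85) beside 11.4% of all LSD1 regions, 22.1% of regions called with and without IL3 and 16.0% (interval 12.5 to 20.3) of the weaker ones among these. Pooled HDAC3plus overlapped 11 members (2.74%, interval 1.53 to 4.83) beside 4.19% of all LSD1 regions and 11.5% (interval 8.63 to 15.3) of gained regions that overlap STAT5A. Without IL3 the members' share was below that of both sets called in both conditions. Those sets were chosen for an LSD1 call without IL3 and the members for its absence, so this comparison is tied to the selection and carries no test. Gained regions at STAT5A had 8.17% (interval 5.75 to 11.5), an interval that overlaps that of the members. With IL3 the members' share was below that of gained regions at STAT5A, and the weaker regions called in both conditions had a like share, 2.72%. Any HDAC3 list overlapped 11.6% of the 129 members within 1 kb of pooled STAT5Aplus, 11.9% of the 101 at 1 to 10 kb and 2.91% (interval 1.25 to 6.62) of the 172 beyond 10 kb.

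**Figure D5:**
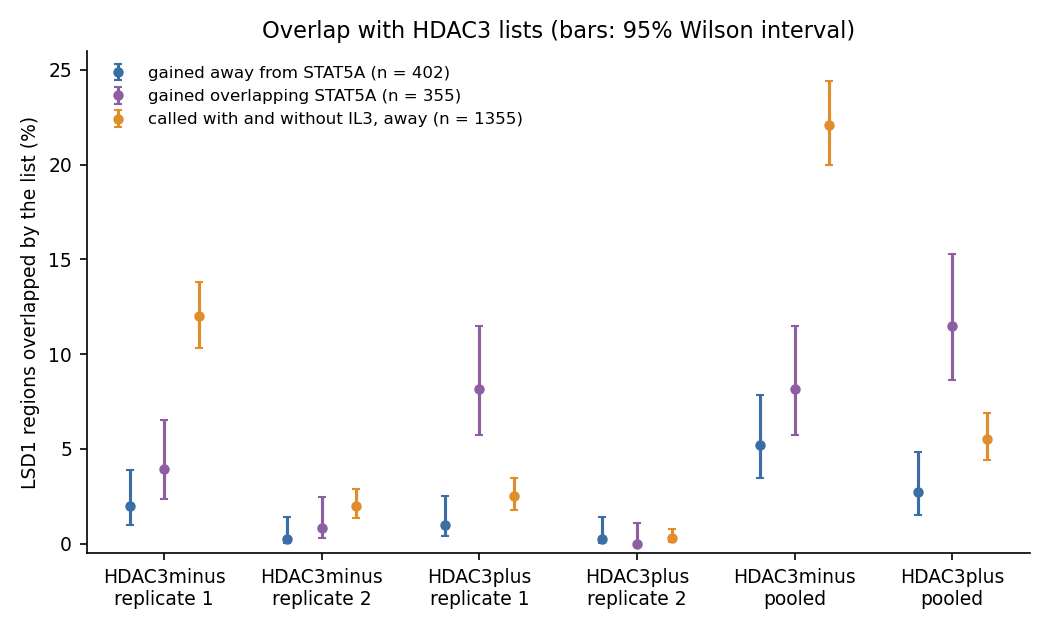
Share of LSD1 regions (y axis, %) overlapped by each HDAC3 list (x axis), with 95% Wilson intervals as bars, for the 402 gained regions away from STAT5A, the 355 gained regions that overlap it and the 1355 regions called with and without IL3. The gained regions away from STAT5A have 5.22% in the pooled list without IL3, against 22.1% for the regions called in both conditions.

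Only 12 members were overlapped by an HDAC3 replicate list. Hmga1, an architectural chromatin protein, had one 1273 bp upstream of its start (position -1273) with LSD1 scores of 27.2 and 45.3, under HDAC3plus 1, HDAC3minus 1 and STAT5Aplus 2 regions. Tiparp, an ADP-ribosyltransferase, had a member 830 bp downstream of its start with scores of 27.2 and 42.6 under an HDAC3minus 2 region. It had a second member 655 bp from the first, and pooled LSD1minus had a region of score 50.7 over the first. Zbtb16, the zinc finger repressor PLZF, had a member with scores of 22.3 and 40.0 under an HDAC3plus 1 region. A member in Prdm10 (29.7 and 32.0) and one near Osbpl8 (29.7 and 29.3) were under HDAC3minus 1 regions. The others were named by E2f6, Zfand3, P2ry1, Nt5e, Rhebl1, Macf1 and Eif3h.

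Promoters covered by the members were rich in GC and poor in STAT motifs. The members overlapped 157 RefSeq promoter windows of 146 genes, with a median GC content of 67.0% and 28 CpG, against 56.3% and 13 over all 21263 windows. Promoters under regions called with and without IL3 had 65.7% and 27. The STAT motif TTCNNNGAA was in 2 of the 157 (1.27%, interval 0.35 to 4.53) and in 7.69% of all windows. It was in 11 of 96 promoters under gained regions that overlap STAT5A (11.5%, interval 6.52 to 19.4). Under the regions called with and without IL3 the share was 3.47% (interval 2.15 to 5.56), and under the weaker of these 1.44%. The members' share was close to the last of these and below the share at STAT5A. The rule left out regions overlapping pooled STAT5Aplus, so the comparison with regions at STAT5A is tied to the selection and carries no test.

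The GC box GGGCGG, bound by KLF and SP factors, was in 83.4% of member promoters (interval 76.8 to 88.4), 46.2% of all and 76.6% of those called with and without IL3. The E-box CACGTG was in 14.6% against 7.84% of all, and in 15.8% under the weaker regions called in both conditions. The ETS motif GGAAGT was in 21.0% (interval 15.4 to 28.0) of member promoters, 24.8% of all, 28.9% of those called with and without IL3 and 44.8% (interval 35.2 to 54.7) of those under gained regions that overlap STAT5A. Both strands were searched, and motif shares were not adjusted for the GC content given above.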

How the data were processed

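Deposited region lists of 12 ChIP-seq libraries and 6 pooled groups were used, each region with a score, whose meaning no source used here states, as the authors deposited it. The submitters' processing notes name Trimmomatic 0.30, Bowtie2 2.1.0, Picard 1.92, HOMER 4.8 and mm10; the caller's settings and control are not given in the sources. The authors listed regions per library and per pooled group, at 1 fixed width per list. Read totals are unknown, and low scores lay within 0.1 of whole multiples of 1 step. An input library, of cells in neither condition, was not used here.

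Regions sharing 1 bp or more were merged and called shared. Positions are centres; distances to STAT5A and LSD1minus regions are between edges. A gene bound is either end of a RefSeq GRCm38.p6 protein-coding gene; starts and strand come from its promoter table, which covers 17492 of 21887 genes and matched no gene on chromosome 18. Wilson intervals (95%) cover counting error only. HDAC3 shares were compared by an exact permutation test over libraries; regions are not replicates. The merging, overlap and permutation steps were tested on simulated data.

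Named genes hold or adjoin the 20 members best by mean rank in the LSD1plus lists, the 10 best within 1 kb of a bound, up to 10 under an HDAC3 replicate list, up to 6 genes a list within 10 kb, and the 3 lowest; not all are printed, some are not reported here, and E2f6 onward in the HDAC3 set exceed the 10. Members and lists were chosen with earlier results of these data known. The weaker regions called in both conditions, with LSD1plus scores between the members' quartiles, and the 178-member set were added after seeing the data. Tables were computed with pandas 2.3.3 and numpy 2.4.6 under Python 3.11.15, intervals with scipy 1.17.1 and plots with matplotlib 3.10.9.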

Additional observations from a re-analysis of the deposited data

How the results depend on the processing

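The set rests on every LSD1 list but LSD1minus 1. Leaving out each LSD1 library in turn gave 413 to 3578 members, and without LSD1minus 2 alone there were 1533. Over the same 4 settings the share within 1 kb of a gene bound was 44.2% to 57.4%, the share within 10 kb of pooled STAT5Aplus 49.8% to 61%, and the share under pooled LSD1minus 14.7% to 76.6%. The share under pooled HDAC3minus was 3.27% to 15.6%, STAT motifs 1.23% to 4.22%, and listed genes near a member 21 to 107, beside 19 in the report. From the top 50% of each LSD1plus list there were 94 members, with 43.6% at a gene bound, 72.3% near STAT5A, 27.7% under pooled LSD1minus, 10.6% under pooled HDAC3minus and 8 listed genes. With the 3 longer LSD1 lists at equal length, 60.1% were under pooled LSD1minus. An overlap of at least 50% gave 36.2% there. Matching centres within 500 bp gave 29.4% there, 47.7% near STAT5A and 11 listed genes. Excluding pooled STAT5Aplus within 1 kb left 37% within 10 kb, and excluding pooled STAT5Aminus gave 50.6% at a gene bound. Excluding pooled LSD1minus gave 0% by construction. The 178-member set, added after seeing the data, gave 44.9% at a gene bound, 50.6% near STAT5A, 0% under pooled LSD1minus, 4 listed genes and an HDAC3 difference of 0. At 2 kb and 5 kb the gene-bound share was 62.7% and 70.1%, and at 50 kb there were 46 listed genes. The cause of these shifts was not tested.

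The HDAC3 difference of -0.498 was the same with the replicate block (exact sign-flip test, p = 1, smallest possible p 0.5). The labels give the cultures shared numbers but no other pairing. Leaving out 1 HDAC3 library gave -1.37 to 0.373, reversed without HDAC3minus 1, and leaving out 1 LSD1 library gave -3.52 to -0.238. Over the alternatives with a test the lowest p was 0.33. The short list and high lowest score of LSD1minus 1, and the floor of each list, limit what a missing call shows.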

Other observations

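Several members lay at families that were grouped after their values were seen, so the counts only describe. Both cytosolic HSP90 chaperone genes had a member, Hsp90aa1 at 221 bp from a gene bound (scores of 19.8 in LSD1plus 1 and 21.3 in LSD1plus 2) and Hsp90ab1 at 621 bp (32.2 and 24.0). Over the Hsp90ab1 member the pooled LSD1plus list had no region and the pooled LSD1minus list had one of score 22.8, opposite to the replicate calls. The 2 genes are 2 of 4 HSP90 genes, where regions called with and without IL3 were near 0 of 4. Of all genes, 2.23% lay near a member and 5.59% near a region called with and without IL3. Nfat5, a factor of the osmotic stress response, had scores of 22.3 and 29.3 with no pooled LSD1plus region over it, and Nfatc3, a factor activated by calcineurin, had 17.3 and 18.7. MAP kinase kinase kinases had members at Map3k1, Map3k5 and Map3k6, 3 of 18. Regions called with and without IL3, which are near a larger share of all genes, were also near 3 of 18. Map3k6 had the highest member score of LSD1plus 2, 69.3, but 19.8 in LSD1plus 1.

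Chromatin regulators that write or read acetylation had 3 of 7 genes with a member, beside 2.23% of all genes. Regions called with and without IL3 were near 1 of 7, beside 5.59% of all genes. Gained regions that overlap STAT5A were near 1 of 7, beside 1.5% of all genes. Ep300, an acetyltransferase, had scores of 24.8 and 24.0. LSD1minus 2 had regions on either side of the Ep300 member, centred 73 bp downstream of the start (score 24.4) and at position -818 (score 30.5). Bptf, a remodeller subunit with a bromodomain, had 27.2 and 21.3, and Pbrm1, a multi-bromodomain subunit of the PBAF remodeller, had 22.3 and 26.6 under a STAT5Aplus 2 region. Pooled STAT5Aplus regions lay 634, 188 and 425 bp from these members. A member near Mon2 lay 446 bp from the hairpin of Mirlet7i, and one near Tspoap1 lay 3412 bp from that of Mir142, a microRNA of blood cells. Pooled LSD1minus regions lay over both members, with scores of 22.8 (Mon2) and 25.4 (Tspoap1).

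The HDAC3plus 2 list had 265 regions, and its highest score was 76945.2.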
